A study of Caenorhabditis elegans with 4 samples.

Results

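Autophagy and the vacuolar ATPase (V-ATPase) were followed in Caenorhabditis elegans, a free-living nematode, after exposure to nitric oxide (NO). Genes were taken by name: a locus of the authors' deposited table was a member if one of its gene names began with atg-, epg-, lgg- or vha-, or was bec-1, unc-51, unc-32, sqst-1, vps-34 or lmp-1. This gave 41 loci of 16562, of which 18 were V-ATPase loci and 23 were autophagy and lysosome membrane loci, and together they named 42 genes of the rule. Both groups were wild-type (WT) worms at L4, the last larval stage. They were 2 control samples, labelled with the agent control and untreated per the series text, and 2 samples labelled NO, exposed to 1 mM of the NO donor MAHMA NONOate, with RNA taken from whole animals after 4 h at 20 °C. The labels give one protocol for both groups and do not say how controls were handled, so NO, the donor compound and handling cannot be told apart. The purpose of the series was to compare their expression profiles.

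The deposited table holds 1 value per condition and locus, read as FPKM (fragments scaled for transcript length and library size), with no value per sample. The spread between the samples of a condition and the depth of each library are therefore unknown. Errors given with a fold are standard errors (SE) implied by the deposited test statistic, and levels carry no error of their own. Nothing says whether the samples of a condition were separate cultures, so deposited p-values may measure technical spread. In RNA from whole worms, fewer cells of a type and less RNA per cell cannot be told apart.

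Autophagy encloses cytoplasm in a double membrane, the autophagosome, and delivers it to the lysosome for breakdown. A kinase complex around UNC-51 starts the process, a lipid kinase complex with BEC-1 marks the membrane, and ubiquitin-like conjugation attaches LGG-1 and LGG-2 to it. The V-ATPase is a rotary proton pump that acidifies lysosomes and other compartments, with a cytosolic V1 sector that splits ATP and a membrane V0 sector that carries protons. In worms the pump also works at the surface of the intestine, the epidermis and the excretory canal.

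No V-ATPase or autophagy locus passed the deposited test. At a deposited adjusted p of 0.05, 0 of the 41 loci were called, against 0.399% of all loci in the table (0.386% higher and 0.0121% lower after NO). At an unadjusted p under 0.05 the count was also 0 of 41, against 3.09% of all loci (2.75% higher and 0.338% lower after NO), so either count lies near its background for a list of this size. The smallest deposited unadjusted p among the members was 0.268, for atg-2, and every member had a deposited adjusted p of 0.99994. Values after NO were lower than in control for 34 loci and higher for 7. Of all loci averaging 1 FPKM or more 53.7% were lower, a share that rose with level. It was 38.3% at 1 to 10 FPKM, 62.0% at 10 to 100 FPKM and 76.6% from 100 FPKM up. Of the 41 deposited log2 folds, 39 were closer to 0 than their own SE.

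These folds were small and, for most loci, bounded, given the error that the deposited test assumed, which may be technical spread. The 95% interval built from the implied SE stayed within a 2-fold change in either direction for all 18 V-ATPase loci and for 14 of the 23 autophagy and lysosome membrane loci. For the V-ATPase the lowest lower bound was a fold of 0.509 and the highest upper bound 1.52. The intervals included no change in all 41 loci.

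**Figure D1:**
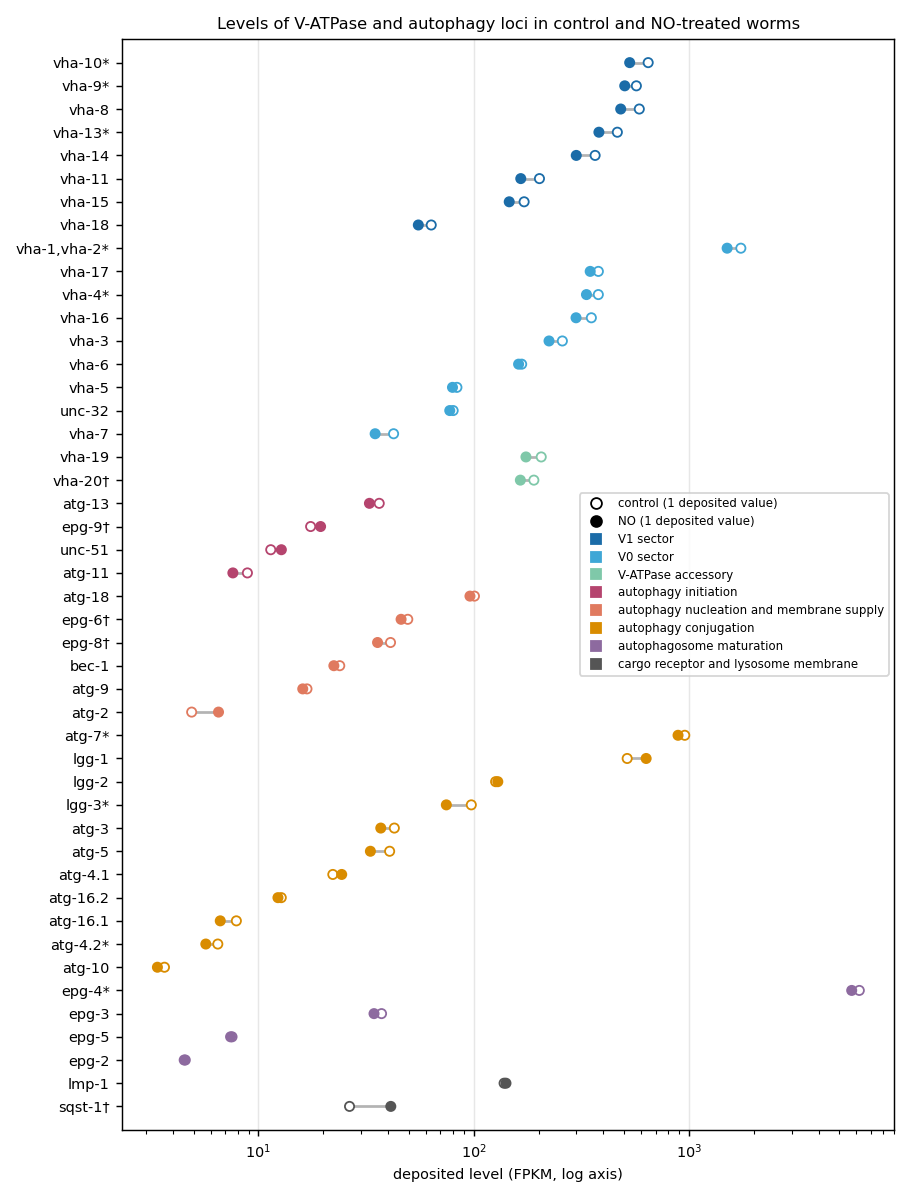
Deposited FPKM (log axis) of each locus in control (open circles) and NO-treated worms (filled circles), coloured by role; * marks loci joined with another gene and † loci listed under a sequence name. All V-ATPase loci have the filled circle to the left of the open one, and the order of levels is nearly the same in both conditions.

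Levels separated the pump from the autophagy machinery by far more than they separated the conditions. The 18 V-ATPase loci had a median of 305 FPKM in control and 261 FPKM in NO, while the 23 autophagy and lysosome membrane loci had medians of 23.9 and 24.4 FPKM. Joined loci, in which the table merges neighbouring genes, inflate some of these levels. Among loci that were not joined, 9 of 13 V-ATPase loci exceeded 100 FPKM in control, whereas 15 of 19 autophagy and lysosome membrane loci were under 50 FPKM and 6 were under 10 FPKM. The 4 exceptions above 50 FPKM were lgg-1, lmp-1, lgg-2 and atg-18. Ranks of the 41 levels were almost the same in both conditions (Spearman's rho 0.997, across loci measured in the same libraries, as a description).

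Joined loci limit what can be said of single genes. Of the 41 member loci, 9 were joined, 5 in the V-ATPase and 4 in autophagy. The locus holding atg-7, which encodes the E1-like enzyme of the conjugation system, also holds the ubiquitin-conjugating enzyme gene let-70, and its deposited levels were 956 FPKM (control) and 890 FPKM (NO). The locus of epg-4, an autophagy gene of animals, also holds the ribosomal protein gene rpl-36 and stood at 6184 and 5701 FPKM in the same table. Values of such loci cannot be assigned to the autophagy gene. The other joined loci were those of vha-4, vha-9, vha-10, vha-13, atg-4.2 and lgg-3, and that of vha-1 with vha-2 and R10E11.6.

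All V-ATPase loci had a lower value after NO, with a log2 fold smaller than its own SE in 17 of 18. The median log2 ratio, taken after adding 1 FPKM to each condition, was -0.22 over the 18 loci, against -0.03 over the 14285 loci that averaged 1 FPKM or more. Abundant loci as a whole were listed lower after NO, which bears on this contrast. Among the 4015 loci in the same range of levels as the V-ATPase the median log2 ratio was -0.14, 74.6% had a ratio below 0, and 29.2% had a ratio at or below the V-ATPase median. Centred on loci of like abundance, the V-ATPase median was -0.08. Deposited log2 folds of the 18 loci ran from -0.29 to -0.05 with an SD among loci of 0.08, while the smallest implied SE of any of them was 0.28.

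**Figure D2:**
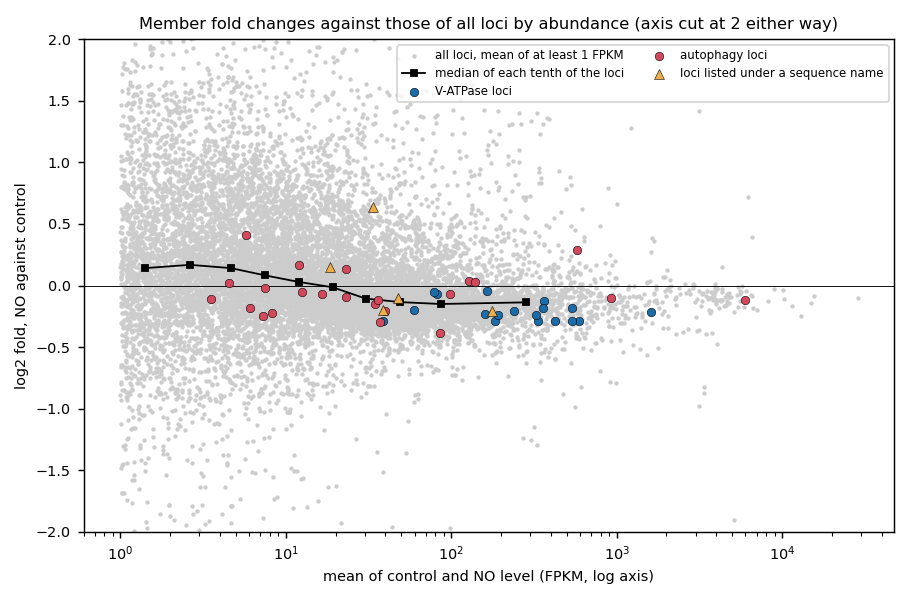
Deposited log2 fold (NO against control) against the mean of both levels (FPKM, log axis) for all loci that averaged 1 FPKM or more (grey), with V-ATPase loci in blue, autophagy loci in red, loci listed under a sequence name as triangles, and medians over 10 equal bins of loci as a black line. V-ATPase loci lie between -0.29 and -0.05, among abundant loci whose own median is below 0.

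The cytosolic V1 sector, which holds the ATP-splitting subunits, had the most uniform values. Its 8 loci had a median log2 ratio of -0.28. The catalytic A subunit gene vha-13, in a joined locus, was listed at 465 FPKM in control and 382 FPKM in NO (deposited log2 fold -0.28, SE 0.31). Both the E subunit gene vha-8, part of the peripheral stalk, and the D subunit gene vha-14, part of the rotor, were near this value. vha-8 went from 588 to 482 FPKM (deposited log2 fold -0.29, SE 0.31) and vha-14 from 366 to 300 FPKM (deposited log2 fold -0.29, SE 0.31). The C subunit gene vha-11, which controls assembly of the sectors, had the smallest p of the pump in the authors' deposited table, with 202 and 165 FPKM (log2 fold -0.29, SE 0.28, unadjusted p = 0.301). The locus of the G subunit gene vha-10, joined with F46F11.9, had the highest V1 level, at a deposited 646 and 530 FPKM. Among V1 loci that were not joined, vha-8 had the highest level. The locus of the F subunit gene vha-9 with the mitochondrial protease gene clpp-1 was listed at 570 and 503 FPKM. The B subunit gene vha-12 was not analysed here.

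The H subunit, a regulatory part of V1, is encoded by a pair of genes. vha-15 was listed at 171 and 146 FPKM (deposited log2 fold -0.23, SE 0.28) and vha-18 at 63.5 and 55.3 FPKM (deposited log2 fold -0.20, SE 0.39). vha-15 thus supplied 73.0% of their summed FPKM in control and 72.6% in NO.

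The membrane V0 sector spanned a wider range of folds than V1. Its 9 loci had a median log2 ratio of -0.18, and its difference from V1 was not tested. The locus of vha-1 and vha-2, neighbouring genes for the proteolipid ring that carries protons, is also joined with the gene R10E11.6. It had the highest listed level of the pump's loci at 1742 and 1504 FPKM (deposited log2 fold -0.21, SE 0.30). This level cannot be assigned to any of the joined genes. vha-3, another proteolipid gene, was listed at 258 and 224 FPKM, and the locus of vha-4, for a larger proteolipid, at 379 and 334 FPKM. The d subunit gene vha-16, which links the ring to the central stalk, was deposited at 352 and 299 FPKM, and the e subunit gene vha-17 at 379 and 348 FPKM. Of the accessory subunits, vha-19 was listed at 206 and 175 FPKM (deposited log2 fold -0.24, SE 0.29).

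The a subunit, which forms the proton path with the ring and sets where the pump is placed, has 4 genes. The tissues they are known from differ but partly overlap. vha-6, known from the apical surface of the intestine, had the highest level of the 4 at 167 FPKM in control and 162 FPKM in NO (deposited log2 fold -0.05, SE 0.33). vha-5, known from the excretory canal and epidermis, was listed at 83.6 and 79.7 FPKM (deposited log2 fold -0.07, SE 0.32). unc-32, known from neurons, was close to vha-5 at 80.3 and 77.4 FPKM (deposited log2 fold -0.05, SE 0.32), and the order of these neighbours cannot be told without an error on levels. vha-7, known from the epidermis, was lowest at 42.4 and 34.8 FPKM (deposited log2 fold -0.28, SE 0.32). Of the summed a subunit FPKM, vha-6 made up 44.7% in control and 45.7% in NO, and vha-7 11.4% and 9.85%. The first 3 genes thus had the smallest folds of the pump and vha-7 a fold like that of V1, yet their intervals overlap widely.

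**Figure D3:**
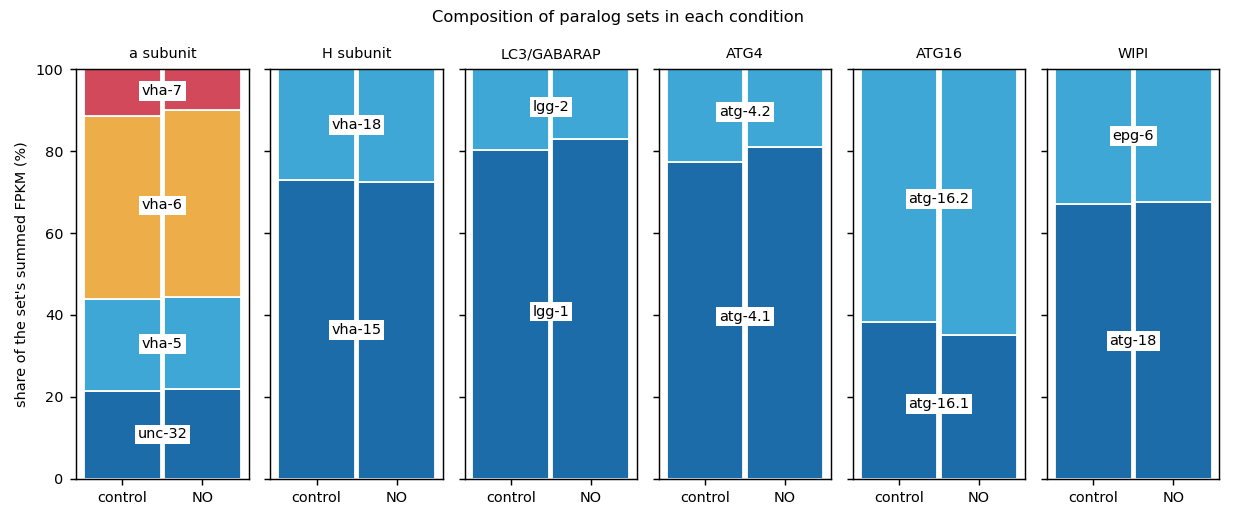
Share of each paralog in the summed FPKM (percent) of its set in control and in NO, for the a and H subunits of the V-ATPase and for 4 pairs of autophagy genes. The makeup of each set differs little between conditions: vha-6 holds 44.7% and 45.7% of the a subunit sum and lgg-1 80.3% and 83.0% of the lgg-1 and lgg-2 sum. The values of atg-4.2 are those of a joined locus.

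The autophagy and lysosome membrane loci had values on both sides of 0. Of 23 loci, 7 were higher and 16 lower after NO, with a median log2 ratio of -0.08, or -0.06 over the 19 that were not joined. All loci in the level range of those 19 had a median of -0.06.

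Among initiation genes, unc-51, the kinase that starts autophagy, was listed at 11.4 and 12.8 FPKM (deposited log2 fold 0.16, SE 0.40). Its partner atg-13 had deposited values of 36.4 and 32.8 FPKM (log2 fold -0.15, SE 0.43). atg-11, named after a yeast scaffold protein, had 8.89 and 7.61 FPKM in the deposited table. The 3 loci did not share a direction, and each fold was smaller than its SE.

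The largest positive fold of the 41 loci was in the nucleation and membrane supply group. It was that of atg-2, whose product moves lipid into the growing membrane: the authors' deposited table has 4.90 FPKM in control and 6.52 in NO (log2 fold of 0.41, SE 0.37, unadjusted p = 0.268). Its 95% interval ran from a fold of 0.802 to 2.21. bec-1, the Beclin gene of the lipid kinase complex, was listed at 23.9 and 22.4 FPKM (deposited log2 fold -0.09, SE 0.50). atg-9, which encodes a membrane protein of the vesicles that seed the autophagosome, was deposited at 16.80 and 16.06 FPKM, and the phosphoinositide-binding gene atg-18 at 101 and 96.1 FPKM. The lipid kinase gene vps-34 was not analysed here.

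The conjugation genes included the most abundant autophagy gene that was not joined. lgg-1, the GABARAP homolog that is bound to autophagosome membranes, stood at 516 FPKM in control and 632 FPKM in NO in the authors' deposited table (log2 fold of 0.29, SE 0.35, unadjusted p = 0.402). It moved from rank 7 to rank 4 among the 41 levels, though the order of neighbours cannot be told without an error on levels. Its 95% interval ran from a fold of 0.763 to 1.97. lgg-2, the LC3 homolog, was listed at 126 and 129 FPKM (deposited log2 fold 0.03, SE 0.41). The ratio of lgg-1 to lgg-2 was 4.08 in control and 4.89 in NO, a change smaller than the SE of either deposited fold.

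Among other parts of the conjugation system, atg-3, atg-5 and lgg-3 had lower values after NO. The E2-like gene atg-3 was listed at 42.8 and 37.0 FPKM (deposited log2 fold -0.21, SE 0.38), and atg-5, whose product is conjugated to the ubiquitin-like protein LGG-3, at 40.7 and 33.12 FPKM (deposited log2 fold -0.30, SE 0.54). The locus of lgg-3 itself, merged with B0336.7, had the most negative fold of the members at 97.5 and 74.6 FPKM (deposited log2 fold -0.39, SE 0.57). Each of these folds was smaller than its SE.

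The paired conjugation genes kept their order. Of the proteases that process LGG proteins, atg-4.1 was deposited at 22.2 and 24.4 FPKM and the joined locus of atg-4.2 at 6.47 and 5.69 FPKM. Of the ATG16 homologs, atg-16.2 was deposited at 12.8 and 12.3 FPKM and atg-16.1 at 7.90 and 6.65 FPKM. The E2-like gene atg-10 was the least abundant member at 3.66 and 3.39 FPKM, and its SE of 1.96 leaves its deposited fold undetermined.

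The epg members that were not joined, and lmp-1, showed small differences. epg-3, the homolog of human VMP1 needed for autophagosome formation, was listed at 37.3 and 34.4 FPKM (deposited log2 fold -0.12, SE 0.38), and epg-5, needed for autolysosome maturation, at 7.54 and 7.42 FPKM. epg-2, an adaptor for germ granule proteins in embryos, was listed at 4.52 and 4.57 FPKM, with an SE of 1.95 on the deposited log2 fold. lmp-1, a LAMP-family protein of the lysosome membrane, had deposited values of 138 and 141 FPKM (log2 fold 0.03, SE 0.36).

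**Figure D4:**
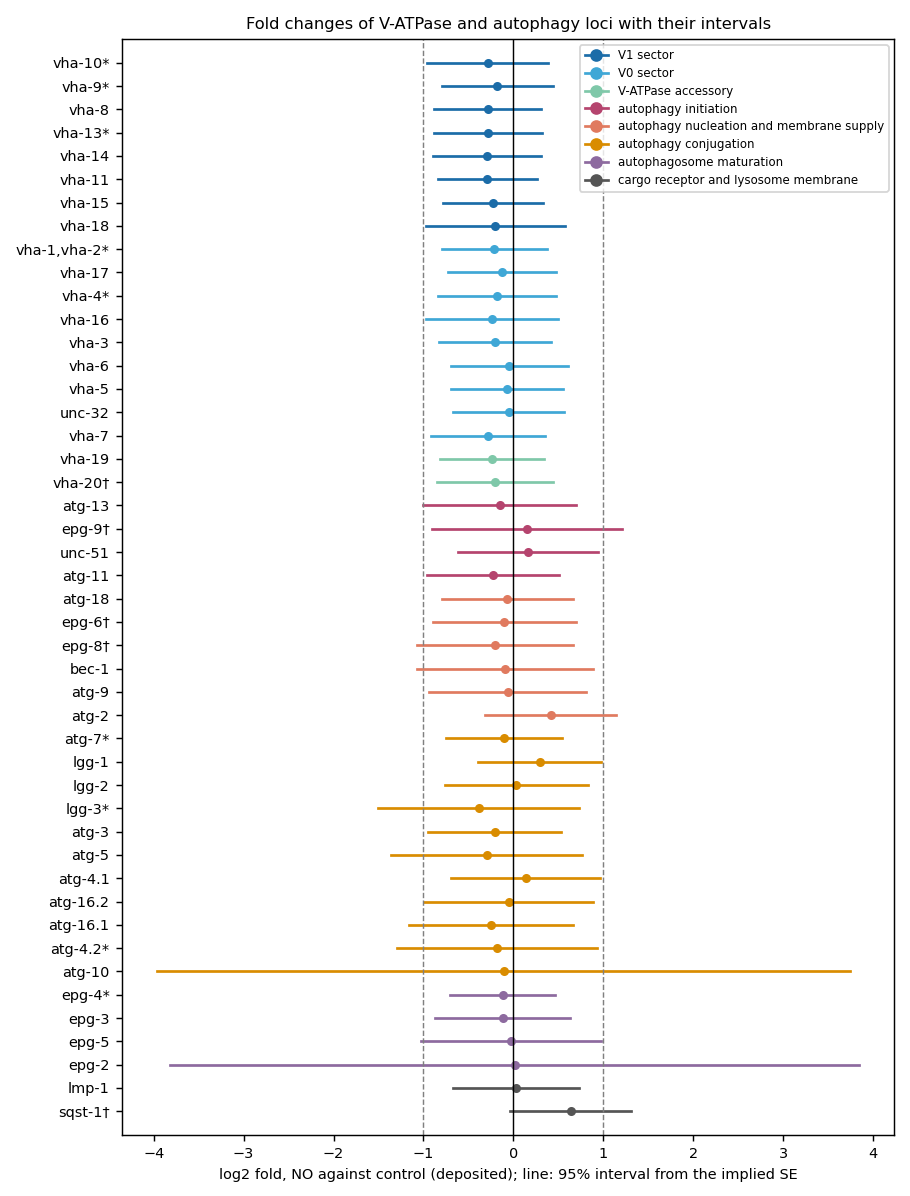
Deposited log2 fold (NO against control) of each locus with its 95% interval from the implied SE, coloured by role; dashed lines mark a 2-fold change either way, * marks joined loci and † loci listed under a sequence name. Every interval includes 0, and those of atg-10 and epg-2, the least abundant loci, are the widest.

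A further 5 loci belong to these gene classes by current symbol but are listed under sequence names, so the name rule did not take them. sqst-1, listed as T12G3.1, encodes the homolog of the human cargo receptor p62, which itself is degraded by autophagy. In the authors' deposited table its level was 26.5 FPKM without NO and 41.2 FPKM with it, a log2 fold of 0.64 (SE 0.34, unadjusted p = 0.0621, adjusted p = 0.99994). This was the largest fold and the smallest p of all 46 loci, yet it missed the unadjusted threshold, and its 95% interval ran from a fold of 0.978 to 2.47. vha-20 (R03E1.2), a V-ATPase accessory gene, was listed at 190 and 165 FPKM (deposited log2 fold -0.21, SE 0.33), so all 19 V-ATPase loci had lower values after NO. The others were epg-6 (Y39A1A.1), a relative of atg-18, at 49.4 and 46.0 FPKM, epg-8 (Y106G6A.2), a BEC-1 partner, at 41.1 and 35.8 FPKM, and epg-9 (Y69A2AR.7), an ATG-13 partner, at a deposited 17.5 and 19.4 FPKM.

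Other genes of the pathway gave no call. A list of 55 regulators, trafficking proteins, lysosome components, selective autophagy genes and V-ATPase assembly factors had 53 measured genes. At a deposited adjusted p of 0.05, 0 were called, against 0.399% of all loci in the table. At an unadjusted p under 0.05 the count was 0 in either direction, against 3.09% of all loci. Either count lies near its background for a list of this size. Of the 52 loci that averaged 1 FPKM or more, 11 were higher and 41 lower after NO, with a median log2 ratio of -0.13. Of all 11675 loci in the same range of levels 56.5% were lower, with a median of -0.05, and centred on loci of like abundance the list's median was -0.05. hlh-30, the TFEB homolog that drives autophagy and lysosome genes, was listed at 30.7 and 33.97 FPKM (deposited log2 fold 0.15, SE 0.38). aak-2, a catalytic subunit of the energy sensor AMPK, was deposited at 20.5 and 22.1 FPKM (log2 fold 0.10, SE 0.44), and let-363, the TOR kinase gene, was not analysed here. rab-7, a GTPase of late endosomes in a joined locus, was deposited at 212 and 198 FPKM, and cup-5, a lysosomal channel gene, at 42.1 and 34.2 FPKM. The rabconnectin genes rbc-1 and rbc-2, whose homologs help to assemble the pump, were deposited at 11.5 and 10.3 FPKM and at 12.7 and 10.9 FPKM, in that order. The largest fold in the list was that of sepa-1, an adaptor for germ granule proteins, singled out after its values were seen: the authors' deposited table has 0.698 and 0.236 FPKM (log2 fold -1.56, SE 0.81, unadjusted p = 0.0536), both under 1 FPKM.

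By role, all 13 trafficking and fusion loci, 4 of them joined, had lower values after NO, with a median log2 ratio of -0.18. Of all loci in their range of levels 61.0% were lower, with a median of -0.08. The 15 regulators had a median of -0.07 and the 16 lysosome membrane and enzyme loci -0.10, against -0.05 in either range of levels. The 6 selective autophagy loci that averaged 1 FPKM or more had -0.19, against -0.10 in their range. The 2 V-ATPase assembly loci had -0.17, against -0.0084. For another rotary ATPase, 10 mitochondrial ATP synthase loci, 6 of them joined, had a median log2 ratio of -0.15. For another degradation machine, 31 proteasome loci, 6 of them joined, had one of -0.16. All values of both lists were below 0. Of all loci in the ATP synthase range of levels 76.7% were lower, and in the proteasome range 75.5%. Each list had 0 calls, against 0.399% of all loci in the table. All loci in their ranges of levels had medians of -0.14 in both cases, and the V-ATPase had -0.22. The difference between these lists and the V-ATPase was not tested.

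**Figure D5:**
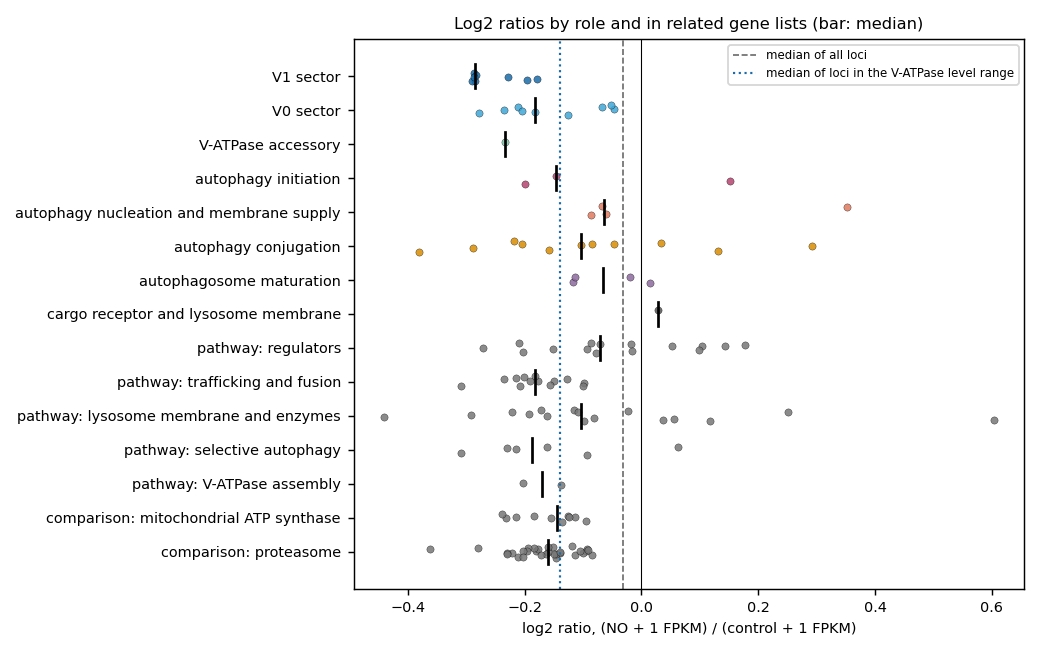
Log2 ratio, with 1 FPKM added to both values, for each locus that averaged 1 FPKM or more, by role and in related gene lists, with a bar at the median; the dashed line is the median of all loci (-0.03) and the dotted line that of loci in the V-ATPase level range (-0.14). V1 loci lie furthest to the left as a group, and autophagy loci spread to both sides of 0.

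Marker lists for tissues in which these genes act had 0 called members, against 0.399% of all loci in the table. Median log2 ratios were -0.04 for 7 intestinal, 0.19 for 6 excretory canal, 0.07 for 8 neuronal, 0.12 for 7 muscle, 0.01 for 5 pharyngeal and -0.20 for 8 germline loci, and -0.0033 for the 4 of 8 epidermal loci that averaged 1 FPKM or more. All loci in the same ranges of levels had medians of -0.10, -0.00077, -0.03, -0.07, -0.02, -0.14 and -0.0084, in that order. All 8 germline loci had lower values after NO, as all V-ATPase loci did, where 74.5% of all loci in the germline range of levels were lower, and the part of tissue makeup in the V-ATPase values was not tested.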

How the data were processed

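RNA from 4 whole-worm samples was sequenced, from libraries made with the Illumina TruSeq RNA kit, per the labels' protocols. The submitters' processing notes name TopHat2 2.0.2, R 2.15.2 and Cufflinks 2.0.5. Build, annotation and scaling are not given in the sources used, and coordinates are left out. A single table was deposited by the authors, with a value per condition, taken as FPKM from its layout and its values that are not whole. Per the file headers, condition 1 is WT and condition 2 is WT with NO. The deposited fold is the ratio of both values within 0.1 percent in all 15621 loci above 0 in both. The deposited test statistic, a score, has the sign opposite to the log2 fold, and the deposited p-value is its two-sided normal tail within 0.001. The deposited adjusted p equals a Benjamini-Hochberg adjustment over all 16562 loci within 3.4e-06.

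Samples had been combined before deposit, so no model per gene could be fitted. The deposited test was used, as the design foresaw for such a table, with calls at a deposited adjusted p of 0.05. SE is the ratio of the deposited log2 fold to its test statistic, and intervals of 95 percent are the fold times and divided by its normal limits. These intervals rest on the error that the deposited test assumed. Depth per sample is unknown. List medians use log2((NO + 1)/(control + 1)) over loci that averaged 1 FPKM or more, which all 41 members passed, and which understates the change of weakly expressed genes. Current symbols came from a RefSeq gene table (assembly WBcel235), used for names only. Of the 41 members, 0 had the same values as another locus. Members and lists were chosen with earlier results of these data known. Text names members by role, with values for those with an unadjusted p under 0.05, the most abundant of each role and paralog sets, and of the pathway lists a fixed set; other values of members complete the account. Alternatives were other thresholds, pseudocounts, filters, centring, leaving out joined loci and current symbols. The code for calls and medians was checked on simulated data with shifts of known size. The simulated calls used the error that the deposited test assumed, and the simulated median none, so the deposited errors were not checked. Python 3.11.15, pandas 2.3.3, numpy 2.4.6, scipy 1.17.1 and matplotlib 3.10.9 were used.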

Additional observations from a re-analysis of the deposited data

How the results depend on the processing

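Calls among the 41 members stayed at 0 with adjusted p thresholds of 0.01 and 0.1, with adjustment over loci of at least 1 or 10 FPKM, without joined loci and with members taken by current symbol. The pathway genes gave 0 calls under the same settings except current symbols, which they already use. The count of members at an unadjusted p under 0.05 was 0 in every setting tried, which were no joined loci, current symbols and a threshold of 0.01. The V-ATPase median log2 ratio was below 0 in every setting, from -0.23 without joined loci to -0.0839 after centring on loci of like abundance, against -0.22 as reported. The autophagy median, -0.08 as reported, was -0.0525 after centring on all loci and -0.0544 after centring on loci of like abundance. The pathway median, -0.13 as reported, was -0.0539 after centring on loci of like abundance. These centrings moved the medians by over 1.5 times, and the other settings did not. No paired analysis was possible because the table holds 1 value per condition, and for the same reason no sample could be left out. The deposited errors limit what can be seen: the smallest implied SE of a V-ATPase log2 fold was 0.28, and the intervals of atg-10 and epg-2 span from under 0.1 to over 10.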
